A study of Mus musculus with 22 samples.

Results

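The 9 genes of Wnt signalling described here were followed across mouse blastocysts and the stem cell lines of the early lineages: the ligands Wnt6 and Wnt7b, the enhancer Rspo3, the receptor Fzd5, the inhibitory kinase complex members Apc and Gsk3b, and the target genes Axin2, Lef1 and Sp5. They were chosen by symbol, with earlier results of these data known, and all 9 were among the 21881 genes of the deposited count table. RNA had been sequenced in 22 libraries, 8 of them from whole mouse blastocysts of embryonic day 3.5 and 14 from 7 cell lines. The embryos were 2 wild type, 2 heterozygous for Nanog (both groups together are called Nanog-bearing) and 4 Nanog-null. Labels put equal numbers of females and males in every genotype, and each embryo was 1 library of amplified cDNA. All lines were labelled wild type for Nanog: 2 embryonic stem (ES) lines (F1 female, M2 male), titled serum free, 3 trophoblast stem (TS) lines (F1 and F2 female, M3 male) and 2 extraembryonic endoderm (XEN) lines (M1 and M2, both male), each sequenced at 2 passages, which the labels number as technical replicates and which are called passages 1 and 2 here. No culture medium is named for the TS and XEN lines, so lineage, medium and, for XEN, sex cannot be told apart, and the embryos, made with another library kit, were not compared with the lines.

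Wnt ligands are secreted lipid-modified proteins that bind Frizzled receptors and Lrp co-receptors. Without a ligand, a complex built on Axin and Apc lets Gsk3b phosphorylate beta-catenin, which is then degraded; with a ligand the complex is inhibited, and beta-catenin enters the nucleus and activates genes with TCF/LEF proteins. Axin2, Sp5 and Lef1 are widely used as readouts of this step, R-spondins such as Rspo3 strengthen it by keeping Frizzled at the surface, and Wnt activity or inhibition of Gsk3 is used to maintain mouse ES cells in the naive state.

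Because Sp5, Lef1 and Axin2 were all at their highest in ES lines, the 250 bases before their RefSeq transcription starts (build GRCm38.p6, plus strand) are printed here. The windows were searched on both strands for the TCF/LEF core motif in 4 spellings, which are listed with their frequencies after the sequences, and capitals mark a match or its reverse complement. The Sp5 window lies at chr2:70474673-70474922, the Lef1 window, before a start inside the gene, at chr3:131156044-131156293, and the Axin2 window at chr11:108920099-108920348.
Sp5: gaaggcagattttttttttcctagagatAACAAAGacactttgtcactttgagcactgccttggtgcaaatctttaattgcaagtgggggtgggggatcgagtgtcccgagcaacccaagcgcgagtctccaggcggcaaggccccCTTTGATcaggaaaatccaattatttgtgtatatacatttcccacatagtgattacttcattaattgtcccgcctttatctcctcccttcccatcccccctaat
Lef1 internal start: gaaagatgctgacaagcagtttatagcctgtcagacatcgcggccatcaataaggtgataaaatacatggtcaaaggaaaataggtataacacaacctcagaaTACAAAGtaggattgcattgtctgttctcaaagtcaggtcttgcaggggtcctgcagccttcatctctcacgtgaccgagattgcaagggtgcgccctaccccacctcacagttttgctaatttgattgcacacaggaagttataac
Axin2: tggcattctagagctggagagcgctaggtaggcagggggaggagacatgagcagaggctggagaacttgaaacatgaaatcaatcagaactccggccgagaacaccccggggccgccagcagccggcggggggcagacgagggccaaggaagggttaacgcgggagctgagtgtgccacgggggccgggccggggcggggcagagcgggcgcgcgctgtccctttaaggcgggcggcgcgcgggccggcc
Sp5, which encodes a zinc finger factor, held 2 matches: CTTTGTT on the minus strand at bases 222 to 216 before the start, and CTTTGAT on the plus strand at bases 104 to 98. Lef1 had 4 RefSeq starts, and 1 match, CTTTGTA on the minus strand at bases 147 to 141, stood before the internal start printed; its other 3 windows, and those of Axin2, Wnt6, Fzd5 and Gsk3b, held none of the 4 spellings. Of 32851 RefSeq promoter windows of this length, 14.84% held at least 1 match and 1.43% held 2 or more. CTTTGAA was in 4.46% of the windows, CTTTGAT in 3.21%, CTTTGTA in 3.2% and CTTTGTT in 5.03%. A match is a description of letters and not a measured binding site.

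The libraries held 14.8 to 32.2 M counts (M being the prefix mega) in embryos and 8.2 to 23.7 M in lines, and levels are given as CPM, counts per M of the library total. Nanog fitted its labels, with 53.6 to 137 CPM in the Nanog-bearing embryos, 0.300 to 0.624 CPM in the null embryos and 562 to 698 CPM in the ES libraries. Summed lineage markers also followed the labels: 7 ES markers reached 5908 to 7059 CPM in ES libraries against at most 881.8 elsewhere among the lines, 6 TS markers were lowest in ES, and 7 XEN markers reached 3063 to 3991 CPM in XEN against at most 53.98 in the other lines. Of the markers of other cells, 8 fibroblast genes summed to 14.3 to 229 CPM in TS, 6.62 to 20.1 in ES and 3.87 to 15.5 in XEN, and 7 myeloid genes to 409 to 703 CPM in ES, 229 to 950 in TS and 8.83 to 22.3 in XEN. Of the myeloid list, Laptm5 alone had 402 to 693 CPM in ES and 108 to 856 CPM in TS libraries, Csf1r had 5.12 to 99.1 CPM in TS, 3.25 to 17.5 CPM in XEN and at most 3 counts in ES, and Ptprc had at most 1 count in any library. In 3 of the 4 null embryos many genes were missing: genes with at most 3 counts that averaged at least 5 CPM in the other 7 embryos numbered 570 in F1, 300 in F2 and 809 in M2, against 133 in M1 and 40 to 68 in the Nanog-bearing embryos. Null F2 and M2 nonetheless had 13660 and 12935 genes detected, inside the Nanog-bearing span of 12793 to 13801. Null F1 and M1 had 11118 and 12434. None of the 8 fibroblast genes was at 0 in null F2 or M2, where they summed to 5.98 and 6.35 CPM. Every other embryo had 6 to 8 of these genes at 0, with sums of 0 to 3.52 CPM. Myeloid genes summed to 5.53 and 0.300 CPM in null F2 and M2, and to 4.64 to 19.2 CPM in the other embryos. The part of these differences in the results below was not tested. Counting intervals and limits given here cover counting error only, and the passages of a line are not independent cultures of separate origin.

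In the embryos, few ligands were detected, and the target genes among the members, Axin2, Lef1 and Sp5, were low or at 0. That does not hold for every target gene. Of a wider list of 19 target genes, which holds these members too, 2 reached 1 CPM in every embryo and 5 had 0 counts in all. The 2 were Sall4 and Znrf3, with a mean log2 CPM of 8.63 and 3.89 in the embryo fit. Lef1, a DNA-binding partner of beta-catenin, and Sp5 had 0 counts in all 8 embryos, which over 171 M counts allows at most 0.0175 CPM. Axin2, Fzd5 and Wnt6 were present at a few CPM with wide scatter, and Apc, Wnt7b and Gsk3b were more abundant. No member passed the test between genotypes. Of the members, 6 of 9 had enough counts to be tested (not Rspo3, Lef1 and Sp5), and 0 of the 6 were called at an edgeR adjusted p below 0.05, 0 at an unadjusted p below 0.05, and 0 of 7 by DESeq2. The background share called was 0.0154% of 12965 genes, both for null against Nanog-bearing and for null against wild type. The median log2 difference of the 6 members was -0.32 against Nanog-bearing and -0.04 against wild type, beside -0.05 and -0.09 over all genes tested. The biological coefficient of variation was 0.979, and the SEs of the members' log2 differences from Nanog-bearing ran from 0.26 to 1.93.

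**Figure D1:**
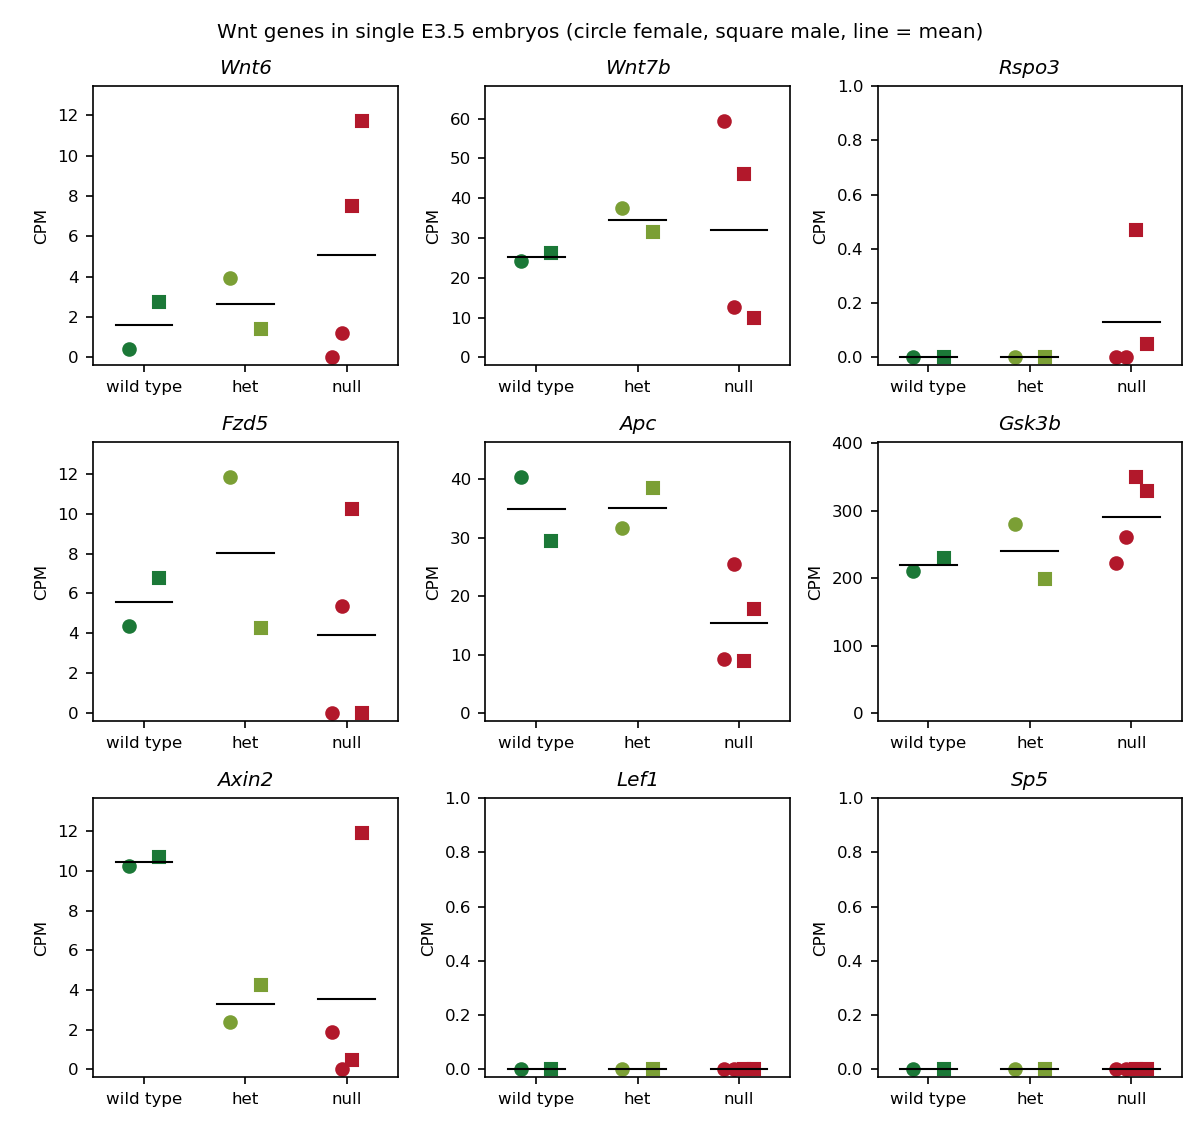
Levels of the 9 Wnt genes in single embryos (y axis, CPM, a linear scale from 0 that differs between panels) by genotype on the x axis; circles are female and squares male embryos, and the black line is the group mean. Apc lies lower in all 4 null embryos, between 8.89 and 25.5 CPM, than in the 4 Nanog-bearing ones, and Lef1 and Sp5 lie at 0 throughout.

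Apc, the scaffold that holds beta-catenin for degradation, was the only member whose null embryos did not overlap the Nanog-bearing ones. It stood at 40.3 and 29.5 CPM in the wild-type embryos (female, male), at 31.7 and 38.5 CPM in the heterozygous ones, and at 9.21, 25.5, 8.89 and 17.9 CPM in null F1, F2, M1 and M2. All 4 null embryos were below all 4 Nanog-bearing embryos, a pattern that 4.21% of the 12965 genes tested also had. The fitted log2 difference was -1.05 (SE 0.56) against Nanog-bearing, with an edgeR adjusted p = 0.931, and -1.03 (SE 0.66) against wild type, with an adjusted p = 1. Gsk3b, the kinase that marks beta-catenin for degradation, stood at 210 and 229 CPM in wild type, 280 and 198 CPM in heterozygous and 222, 260, 349 and 330 CPM in the null group (F1, F2, M1, M2). The highest values of Gsk3b were in the 2 male null embryos, and the groups overlapped; the log2 difference was 0.43 (SE 0.26, edgeR adjusted p = 0.944).

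Axin2, a target gene whose product feeds back on the pathway as a scaffold, varied widely from embryo to embryo. The wild-type embryos had 10.2 and 10.7 CPM and the heterozygous ones 2.36 and 4.27 CPM. Null F1 had 1.89 CPM, null F2 none, null M1 0.468 and null M2 11.9 CPM. Thus 3 null embryos were below every Nanog-bearing embryo and 1 was above all of them. Wild type had 10.5 ± 0.328 CPM (SD, n = 2) and heterozygous 3.31 ± 1.35 CPM (n = 2). These genotypes were not tested against each other, and Wnt7b was higher in the heterozygous embryos. The log2 difference of null from Nanog-bearing was -1.08 (SE 1.79, edgeR adjusted p = 0.998), and it was -2.88 without null M2 and -0.39 without null F2. Null M2 and F2 are among the embryos with many missing genes, and Axin2 is itself one of the genes missing in F2.

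Wnt7b was, with Wnt3a, 1 of only 2 ligands of the 19 in the table that reached 1 CPM in every embryo. Per kilobase of exon, Wnt3a averaged 9.91 ± 3.08 CPM (SD, n = 8) and Wnt7b 6.70 ± 3.60 CPM, and the intervals of 1 SD around these means overlapped; Wnt6 came next with 1.74 ± 1.96 CPM. Another 7 ligands had 0 counts in all embryos. In CPM, Wnt7b stood at 24.2 and 26.3 in wild type, at 37.6 and 31.6 in heterozygous and at 59.3, 12.6, 46.1 and 9.80 in null F1, F2, M1 and M2. The null embryos split around the Nanog-bearing range, F1 and M1 above it and F2 and M2 below. The summed level of the 6 TS markers, which are trophectoderm genes, split the same embryos: 7325 and 8090 CPM in null F1 and M1, and 2251 and 2450 CPM in F2 and M2, against 5695 to 8048 in the Nanog-bearing embryos. Krt8 and Krt18 supplied most of that sum. Of the other markers, Cdx2 did not split this way, with 56.8, 31.3, 72.6 and 62.9 CPM in null F1, F2, M1 and M2, and Eomes, at 122, 45.0, 123 and 64.4 CPM there, had 31.0 to 84.2 CPM in the Nanog-bearing embryos. In bulk samples, fewer cells of a type and less RNA per cell cannot be told apart, and the part of these markers in the Wnt7b levels was not tested. The log2 difference of Wnt7b was 0.17 (SE 0.61, edgeR adjusted p = 1), and its sign turned when null F1 or M1 was left out.

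Wnt6 stood at 0.423 and 2.73 CPM in wild type, 3.91 and 1.42 CPM in heterozygous and 0, 1.19, 7.48 and 11.7 CPM in null F1, F2, M1 and M2. The 2 male null embryos were above, and female F1 below, every Nanog-bearing embryo, and the log2 difference was 0.30 (SE 1.93, edgeR adjusted p = 1). Fzd5, a receptor, stood at 4.36 and 6.79 CPM in wild type, 11.8 and 4.27 CPM in heterozygous, 5.39 and 10.2 CPM in null F2 and M1, and had 0 counts in null F1 and M2, the embryos with the most missing genes. Its log2 difference was -0.80 (SE 1.92, adjusted p = 0.998) with all embryos and 0.26 without null F1 and M2, whose removal could only raise the null level, since they are the embryos at 0. Rspo3 had 0 counts in 6 embryos, 9 counts (0.468 CPM) in null M1 and 1 count in null M2.

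The rest of the pathway in embryos gave the same picture of scatter without calls. Of 99 pathway genes in the table, in lists by role that hold the members too, 54 were tested, 0 were called in either comparison, and 1 and 3 had an unadjusted p below 0.05 against Nanog-bearing and wild type; DESeq2 called 0 as well. Their median log2 difference was -0.21 and -0.24. Ctnnbip1, an inhibitor of beta-catenin, had 4.78 and 5.09 CPM in wild type, 1.85 and 1.02 CPM in heterozygous and 0 to 0.274 CPM in the null embryos, and its log2 difference from Nanog-bearing was -5.41 (SE 2.22, edgeR adjusted p = 0.931). Tle1, a co-repressor, had 2.84 to 9.07 CPM in the Nanog-bearing and 0.061 to 0.95 CPM in the null embryos (log2 -2.92, SE 1.63, adjusted p = 0.935). Both genes were thus below the Nanog-bearing range in all 4 null embryos without passing the test. That pattern was found in 4.21% of the 12965 genes tested, and both were named for the smallest p of their list. Apcdd1, a membrane inhibitor and target gene, had 8.38 and 7.66 CPM in wild type, 0 and 2.10 CPM in heterozygous and 0.050 to 0.365 CPM in null embryos, so that heterozygous and null overlapped. The co-receptor Lrp6 had 30.9 and 27.7 CPM in wild type, 19.8 and 17.5 CPM in heterozygous and 7.35 to 18.3 CPM in null embryos (log2 -0.74, SE 0.57, adjusted p = 0.967). Beta-catenin itself, Ctnnb1, stood at 184 to 193 CPM in the Nanog-bearing and 43.6 to 180 CPM in the null embryos, lowest in F2. It did not pass the test either (log2 -0.45, SE 0.39, edgeR adjusted p = 0.983). The authors' deposited table of Nanog-regulated genes lists 78 genes, 71 down and 7 up, and none of the 9 members or of the 99 pathway genes.

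In the lines, the members separated into a ligand group high in TS and a target group high in ES. Wnt7b and Wnt6 were lower in ES than in TS, and Sp5, Lef1 and Axin2 rose in ES against both TS and XEN. Fzd5 followed the targets, and Apc and Gsk3b differed little. In ES against TS, 6 of 8 tested members were called, 4 higher and 2 lower in ES, beside 20.0% and 21.3% of 14687 genes (41.3% in all). In ES against XEN, 4 were higher and 2 lower in ES, beside 23.4% and 21.8% (45.1% in all). In TS against XEN, 3 were higher and 1 lower in TS, beside 20.3% and 16.4% (36.7% in all). DESeq2 gave the same numbers of member calls in each direction. The median log2 difference of the 8 members was 1.17, 2.18 and 0.55 in these comparisons, beside -0.02, 0.05 and 0.02 over all genes. The ES and TS lines enter 2 comparisons each, as do the XEN lines, so the comparisons share samples.

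**Figure D2:**
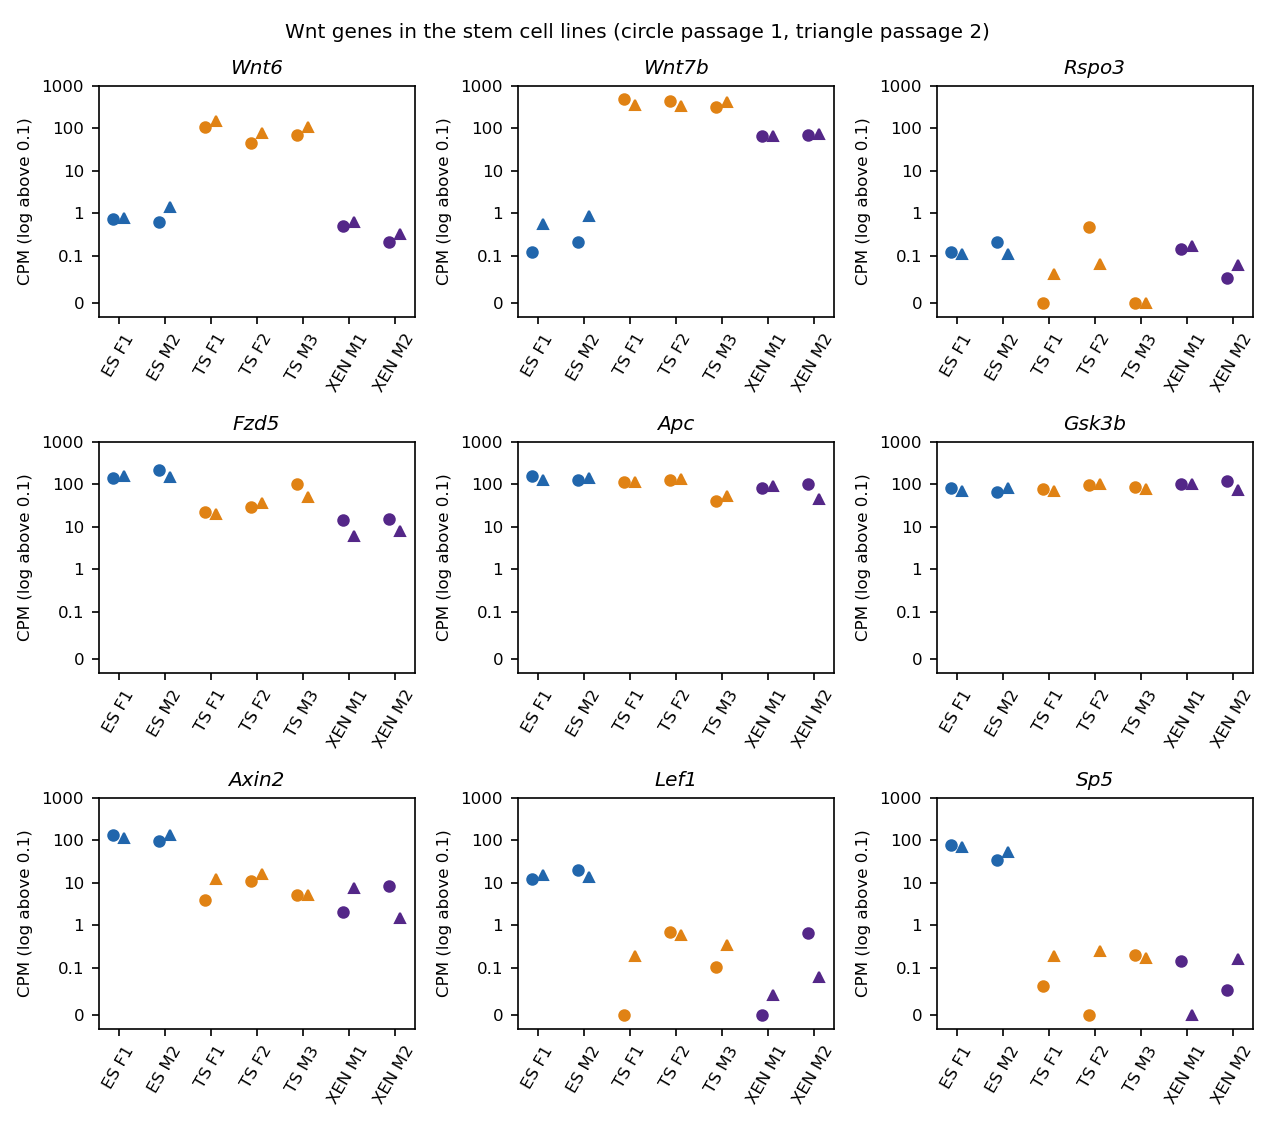
Levels of the 9 Wnt genes (y axis, CPM, logarithmic above 0.1 and linear below) in the 7 lines on the x axis; circles are passage 1, triangles passage 2, and colours mark ES, TS and XEN. Wnt6 and Wnt7b are high in TS, Sp5, Lef1, Axin2 and Fzd5 are high in ES, and Apc and Gsk3b lie at similar heights in the lineages.

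Wnt7b was the most abundant ligand of the TS lines. With the passages of a line summed, it stood at 421, 385 and 372 CPM in TS F1, F2 and M3, at 66.3 and 72.0 CPM in XEN M1 and M2, and at 0.344 and 0.529 CPM in ES F1 and M2. Every TS library was above every XEN library, and every XEN library above every ES library. The log2 difference of Wnt7b was -9.86 in ES against TS (SE 0.28, edgeR adjusted p = 8.54e-06), and -7.62 in ES against XEN (SE 0.26, adjusted p = 1.61e-05). It was 2.23 higher in TS than in XEN (SE 0.18, adjusted p = 0.000191). By p-value Wnt7b ranked 2 of 14687 genes in ES against TS and 5 in ES against XEN. Wnt6 stood at 128, 63.1 and 90.8 CPM in TS F1, F2 and M3, at 0.746 and 1.00 CPM in ES and at 0.584 and 0.249 CPM in XEN. Unlike Wnt7b, Wnt6 was low in both other lineages: its log2 difference was -6.80 in ES against TS (SE 0.53, edgeR adjusted p = 0.000220), 7.51 in TS against XEN (SE 0.54, adjusted p = 0.000119; 8.25 without XEN M1) and 0.71 in ES against XEN (SE 0.53, adjusted p = 0.312).

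Per kilobase of exon, Wnt7b (85.1 ± 5.51 CPM, SD, n = 3 lines) and Wnt6 (45.3 ± 15.6 CPM) led the 19 ligands in TS, followed by Wnt9a with 5.87 ± 2.29 CPM. In XEN, Wnt11 (15.2 ± 12.6 CPM, n = 2) and Wnt7b (14.99 ± 0.866 CPM) led and did not differ beyond their spread, since Wnt11 had 86.9 CPM in XEN M1 and 22.7 in XEN M2. In ES, Wnt5b led with 3.13 ± 0.728 CPM per kilobase (n = 2) and was the only ligand that reached 1 CPM in every ES library. In TS 5 ligands did so (Wnt5b, Wnt6, Wnt7b, Wnt9a and Wnt11) and 4 in XEN (Wnt4, Wnt7b, Wnt9a and Wnt11). Of 13 ligands tested, Wnt6 and Wnt7b among them, 1 was higher and 8 were lower in ES than in TS. In ES against XEN 4 were higher and 4 lower, and in TS against XEN 8 and 0. The shares of all 14687 genes called were 41.3%, 45.1% and 36.7%. The median log2 difference of the ligands was -3.60 in ES against TS. In the comparisons with XEN, where 4 of them had 0 counts, the medians were 0.71 and 5.34. They were -0.14 and 3.48 with such genes at the bound that 3 counts allow. Genes with at most 3 counts in the other lineage too were left out of the latter medians, Wnt9b and Wnt10a in ES against XEN. Wnt5b, mostly a ligand of beta-catenin-independent signalling, was the ligand higher in ES than in TS (log2 1.78, SE 0.43, adjusted p = 0.0154), with 6.94 and 9.68 CPM in ES, 1.77 to 3.09 CPM in TS and at most 2 counts in a XEN line. Wnt9a was lower in ES than in TS (-4.43, SE 0.58, adjusted p = 0.00143) and than in XEN (-3.06, SE 0.57, adjusted p = 0.00437). Wnt4 had 0 and 1 counts in ES, 0.979 to 8.21 CPM in TS and 7.01 and 11.9 CPM in XEN. Wnt3 and Wnt7a, called higher in TS than in XEN, had 1 and 0 counts over both XEN lines and 1.47 to 9.55 and 2.48 to 7.94 CPM in TS.

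The enhancer Rspo3 was not expressed at a testable level. It had 0 to 5 counts in every line library, the most in TS F2 passage 1, where the fibroblast markers were also highest (229 CPM, with none of the 8 genes at 0, against 14.3 to 70.0 CPM in the other TS libraries); the part of such cells was not tested. Of the other R-spondins, Rspo1 was higher in TS than in XEN (log2 4.54, SE 0.87, edgeR adjusted p = 0.00628), with 0.953 to 2.78 CPM in TS, 0.402 and 0.687 CPM in ES and at most 3 counts in a XEN line. The R-spondin receptor Lgr4 was present in all lineages, at 74.2 ± 2.36 CPM in ES, 30.3 ± 10.1 in TS and 46.7 ± 0.514 in XEN (SD over lines), and was higher in ES than in TS (1.24, SE 0.26, adjusted p = 0.00862).

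Ligand release showed a gene by gene pattern. Wls, the carrier that brings Wnts to the surface, was at 12.8 ± 0.274 CPM in ES, 30.2 ± 8.17 in TS and 77.1 ± 7.63 in XEN, and was called in all 3 comparisons (log2 -1.30 in ES against TS, -2.93 in ES against XEN and -1.63 in TS against XEN; edgeR adjusted p = 0.00607, 0.000283 and 0.00184). Porcn, the enzyme that attaches the lipid, ran from 1.59 to 2.04 CPM in TS through 9.87 and 17.3 CPM in ES to 136 and 23.6 CPM in XEN M1 and M2, and was also called in all 3. Notum, a secreted enzyme that removes the lipid and is itself a Wnt target, was higher in ES (143 and 82.8 CPM) than in TS (1.62 to 8.53 CPM; log2 4.72, SE 0.73, adjusted p = 0.00268) and had 10 and 2 counts in the XEN lines.

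Among receptors, Fzd5 was highest in ES. It stood at 154 and 185 CPM in ES F1 and M2, at 20.8, 33.6 and 74.4 CPM in TS F1, F2 and M3, and at 9.01 and 12.3 CPM in XEN M1 and M2, with no overlap between lineages. Its log2 difference was 3.65 in ES against XEN (SE 0.62, edgeR adjusted p = 0.00316), 1.88 in ES against TS (SE 0.51, adjusted p = 0.0224) and 1.77 in TS against XEN (SE 0.55, adjusted p = 0.0405). The last 2 calls were lost when a line was left out: ES against TS without TS F2 or either ES line (adjusted p up to 0.102), and TS against XEN without any 1 line other than TS F1 and TS M3 (up to 0.184). Without the filter on low counts, the TS against XEN call was lost as well (adjusted p = 0.0546). Without TS M3 these differences were 2.62 and 1.03. The passages of TS M3 had 104 and 50.3 CPM, and those of XEN M1, with the widest ratio, 14.2 and 5.91 CPM. Of 10 Frizzled genes, Fzd5 among them, 4 were higher and 2 lower in ES than in TS. In ES against XEN 4 were higher and 5 lower, and in TS against XEN 5 and 3. Over all 14687 genes, 41.3%, 45.1% and 36.7% were called in these comparisons. Fzd10 had the same order of lineages as Fzd5, at 64.6 and 58.2 CPM in ES, 1.90 to 6.53 CPM in TS (log2 3.83 in ES against TS, SE 0.59, adjusted p = 0.00268) and 0 and 3 counts in XEN. Fzd1 was highest in TS (16.8 ± 1.82 CPM, against 1.16 ± 0.145 in ES and 2.18 ± 0.266 in XEN), and Fzd4 (14.9 ± 2.07 CPM) and Fzd2 (28.5 ± 10.3 CPM) in XEN. Of the co-receptors, Ror2 had 44.8 and 48.9 CPM in ES, 9.89 to 22 CPM in TS and 1 and 2 counts in XEN. Ryk was lower in ES (70.6 and 73.4 CPM) than in TS (169 to 193 CPM, log2 -1.40, SE 0.16, edgeR adjusted p = 0.000921). Lrp6 ranged from 60.5 ± 10.9 CPM in TS to 129 ± 42.3 CPM in XEN. It was lower in TS than in XEN (log2 -1.37, SE 0.23, edgeR adjusted p = 0.00358) and lower in ES than in XEN (-0.95, SE 0.26, adjusted p = 0.0195).

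Apc and Gsk3b, the members that keep beta-catenin low, differed by less than 1 log2 unit between lineages. Apc stood at 141 and 131 CPM in ES, 112, 130 and 47.1 CPM in TS F1, F2 and M3, and 88.9 and 80.2 CPM in XEN, and passed no test. Its log2 difference was 0.45 in ES against TS (SE 0.35, edgeR adjusted p = 0.326), 0.35 in ES against XEN (SE 0.39, adjusted p = 0.496) and -0.11 in TS against XEN (SE 0.35, adjusted p = 0.835), and TS M3 alone was far below the rest. Gsk3b stood at 75.2 and 74.8 CPM in ES, 75.5, 99.6 and 80.9 CPM in TS and 103 and 103 CPM in XEN. It was lower in ES than in XEN (-0.80, SE 0.18, edgeR adjusted p = 0.0105) and lower in TS than in XEN (-0.55, SE 0.16, adjusted p = 0.0358), and did not pass in ES against TS (-0.25, SE 0.17, adjusted p = 0.263). The TS against XEN call was lost without any line other than TS M3 (adjusted p 0.0512 to 0.109) and with another scaling of the libraries (0.0516), and the ES against XEN call without either ES line (0.0673 and 0.0803). Of 15 tested genes of Dishevelled and the destruction complex, Axin2, Apc and Gsk3b among them, 3 rose and 3 fell in ES against TS. The numbers were 3 and 3 in ES against XEN and 2 and 2 in TS against XEN. Beside them, 41.3%, 45.1% and 36.7% of all 14687 genes were called. Ctnnb1 and Axin1 passed no test. Ctnnb1 stood at 887 ± 17.7 CPM in ES, at 898, 1053 and 1051 CPM in TS F1, F2 and M3, and at 690 ± 50.2 CPM in XEN. Fam123b, which anchors Apc at the membrane, had the smallest p of the list in ES against TS, with 35 ± 9.54 CPM in ES and 32.8 ± 4.84 in XEN but 2.76 ± 0.711 in TS (log2 3.61 in ES against TS, SE 0.31, adjusted p = 0.000310). Apc2, a relative of Apc, was lower in ES, at 0.631 and 1.06 CPM, than in TS, at 7.04 to 13.3 CPM (-3.58, SE 0.79, adjusted p = 0.0108), and higher in TS than in XEN (2.75, SE 0.74, adjusted p = 0.0244). Among the called changes of less than 1 log2 unit were those of Csnk1d (-0.89) and Dvl2 (0.91) in ES against TS and of Csnk1a1 (0.82) in TS against XEN.

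**Figure D3:**
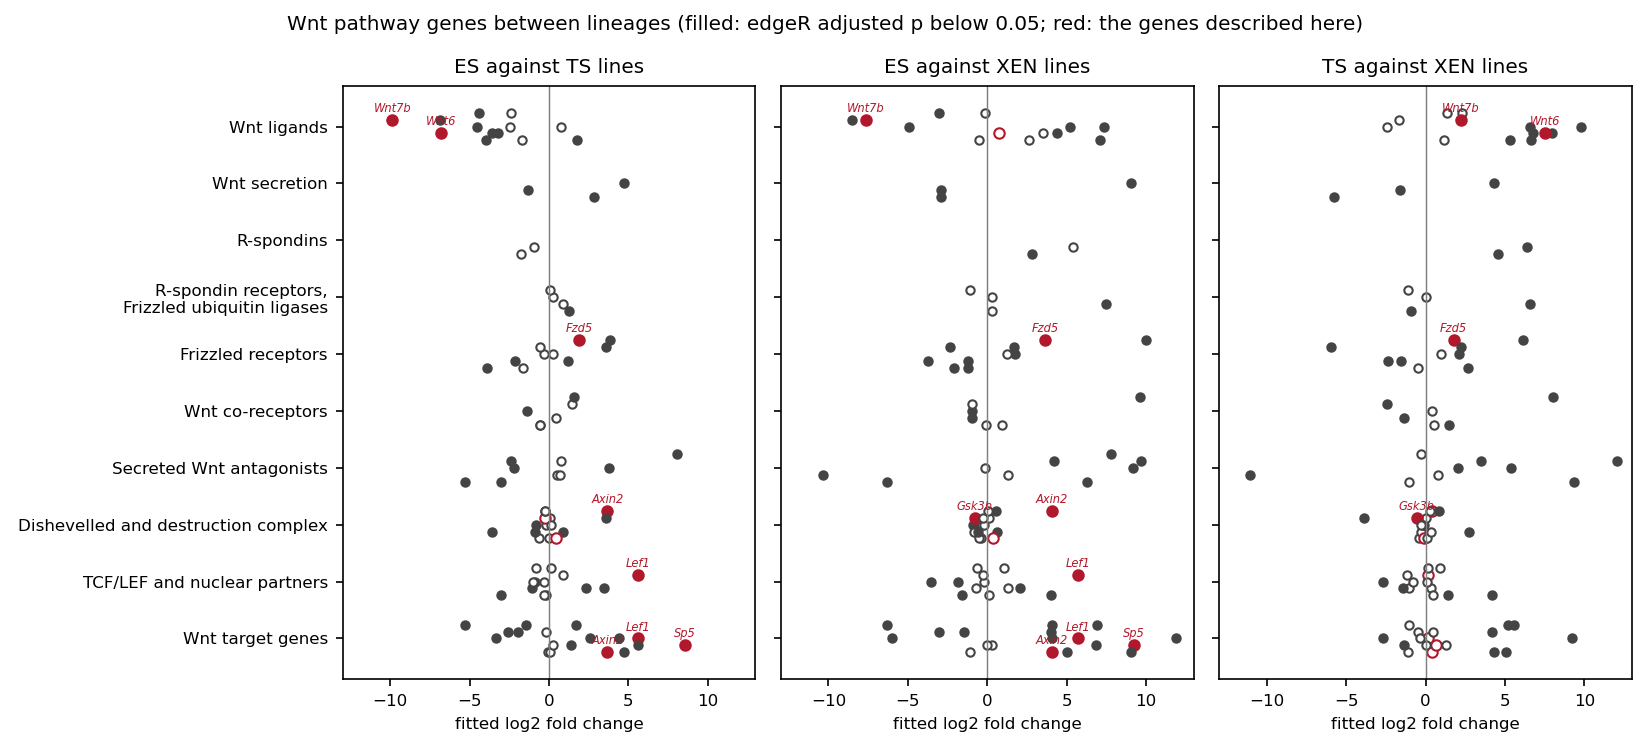
Fitted log2 fold changes (x axis) of the Wnt pathway genes by role (y axis) in the 3 comparisons of lineages; filled points have an edgeR adjusted p below 0.05, red points are the 9 genes described, and only called ones of these are named. Wnt7b and Wnt6 lie far to the left and Sp5, Lef1 and Axin2 to the right in ES against TS, while Apc and Gsk3b, not called there, lie near 0.

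The 3 target genes were high in ES lines. Sp5 stood at 74.2 and 43.2 CPM in ES F1 and M2, against 0.122 to 0.182 CPM in TS and 0.0531 and 0.0932 CPM in XEN, where no library had more than 3 counts. Its log2 difference was 8.57 in ES against TS (SE 0.44, edgeR adjusted p = 4.92e-05) and 9.26 in ES against XEN (SE 0.55, adjusted p = 4.79e-05). Lef1 stood at 13.8 and 17.0 CPM in ES, 0.0918 to 0.622 CPM in TS and 0.0266 and 0.435 CPM in XEN. Every ES library was above every other library, and the differences were 5.59 (SE 1.00, edgeR adjusted p = 0.00477) against TS and 5.73 (SE 1.19, adjusted p = 0.00696) against XEN. Without TS F2 the first was 6.51, and the second was 4.78 without XEN M1 and 8.62 without XEN M2. Axin2 stood at 124 and 117 CPM in ES, 8.2, 14.1 and 5.08 CPM in TS F1, F2 and M3, and 5.53 and 5.75 CPM in XEN. Unlike Sp5 and Lef1 it was therefore clearly present outside ES, and it was 3.68 higher in ES than in TS (SE 0.36, edgeR adjusted p = 0.000522) and 4.08 higher than in XEN (SE 0.43, adjusted p = 0.000463). Between TS and XEN none of the 3 passed, with 0.40 for Axin2 (SE 0.36, adjusted p = 0.418), 0.14 for Lef1 (SE 1.05, adjusted p = 0.930) and 0.69 for Sp5 (SE 0.59, adjusted p = 0.465).

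The list of 19 target genes, of which 18 were tested, holds Sp5, Lef1 and Axin2 too. Other genes of the list rose in ES as well, but the list was mixed. In ES against TS 9 were higher and 5 lower, beside 20.0% and 21.3% of all 14687 genes. In ES against XEN 11 were higher and 4 lower, beside 23.4% and 21.8%. In TS against XEN 6 were higher and 2 lower, beside 20.3% and 16.4%. The median log2 differences were 0.80, 4.09 and 0.43. Sp5, Lef1 and Axin2 are among the genes higher in ES in both comparisons, and they enter these medians. T, the mesoderm factor Brachyury, had 26.2 and 23.1 CPM in ES, 0.398 to 0.590 CPM in TS and 12 and 0 counts in XEN (log2 5.57 in ES against TS, SE 0.83, edgeR adjusted p = 0.00239). Tnfrsf19 was higher in ES than in TS (4.43, SE 0.51, adjusted p = 0.000930). Ccnd1, the cyclin of the G1 phase, was higher in ES (253 ± 27.0 CPM) and TS (74.3 ± 44.6 CPM) than in XEN (1.68 ± 0.429 CPM), and Cdx1 had 19.7 ± 6.49 CPM in ES, 3.08 ± 0.962 in TS and 0 counts in XEN. Myc ran the other way, at 18.4 ± 3.40 CPM in ES, 106 ± 22.9 in TS and 122 ± 10.8 in XEN (-2.60 against TS, SE 0.29, adjusted p = 0.000756; -3.07 against XEN, SE 0.30, adjusted p = 0.000345). Tcf7, a target and a TCF factor, was about as high in TS (93.5 ± 23.4 CPM) as in ES (87.0 ± 0.301 CPM) and low in XEN (4.28 ± 2.44 CPM; 4.0 in ES against XEN, SE 0.42, adjusted p = 0.000456), so it did not follow Lef1. Tcf7l2 was lower in ES (10.2 ± 0.575 CPM) than in XEN (95.7 ± 6.30 CPM; -3.57, SE 0.27, adjusted p = 0.000118). The co-repressor Tle4 had 147 and 150 CPM in ES, 8.62 to 15.5 CPM in TS and 26.2 and 30.8 CPM in XEN (3.49 in ES against TS, SE 0.24, adjusted p = 0.000153). Bcl9l, a co-activator of beta-catenin, was lower in ES (19.6 and 22.6 CPM) than in TS (94.7 to 231 CPM; -3.05, SE 0.44, adjusted p = 0.00219). Nkd1, a feedback inhibitor, was higher in TS (3.81 to 5.02 CPM) than in XEN (3 and 2 counts).

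Genes of the antagonist list, which holds secreted antagonists and the Dkk receptors Kremen1 and Kremen2, differed between lineages in both directions. Of 9 tested, 2 rose and 4 fell in ES against TS, 5 and 2 in ES against XEN, and 5 and 1 in TS against XEN. Sfrp1, a Wnt-binding decoy, had 197 and 165 CPM in ES, 9.76 to 16.5 CPM in TS and 0.133 and 0.373 CPM in XEN (log2 3.77 in ES against TS, SE 0.32, edgeR adjusted p = 0.000291; 9.16 in ES against XEN, SE 0.50, adjusted p = 3.77e-05). Its relative Frzb had 86.2 and 206 CPM in XEN, 2 and 3 counts in ES and at most 4 counts in a TS line. Sfrp2 had 22.2 ± 13.1 CPM in TS, 4.31 ± 1.31 CPM in ES and 0 counts in XEN, and Kremen1, a Dkk receptor, was highest in TS (109 ± 5.82 CPM). Over all 86 pathway genes tested, 23 rose and 26 fell in ES against TS (median log2 -0.25). In ES against XEN 30 rose and 24 fell (0.11), and in TS against XEN 32 and 15 (0.44). Beside them, 41.3%, 45.1% and 36.7% of all 14687 genes were called in these comparisons. In ES against XEN 9 of the 86 had a lineage at 0 counts. The median there was 0.05 with these at their bound, or left out where neither lineage had more than 3 counts. With 1 ES line left out, fewer pathway genes were called in ES against TS and in ES against XEN, and fewer of all genes as well.

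The passages of a line did not repeat equally well for all members. In XEN M1, Axin2 went from 2.00 to 7.60 CPM between passages 1 and 2, a ratio of 3.79 (95% counting interval 2.54 to 5.87), and in XEN M2 from 8.5 to 1.5 CPM, a ratio of 0.177 (0.104 to 0.285). In TS F1, Axin2 went from 3.94 to 12.5 CPM, a ratio of 3.18 (2.39 to 4.27). So the XEN lines, which agree closely after summing (5.53 and 5.75 CPM), each held 1 high and 1 low library. Such changes were rare in XEN M1 and TS F1, where 3.28% and 1.95% of genes with at least 100 counts differed over 2-fold and 1.00% and 0.400% over 3-fold. In XEN M2 12.9% differed over 2-fold and 3.61% over 3-fold. These shares were not matched to the level of Axin2, which had 208 counts in XEN M1, 268 in TS F1 and 185 in XEN M2. XEN M2 passage 1 also held 13 Lef1 counts (0 or 1 in the other XEN libraries), 154 counts of the TS marker Cdx2 (7 to 14 in the others) and more Apc, 104 CPM against 44.2 in passage 2. Its 6 TS markers together did not stand apart, at 1182 CPM against 764 to 1229 CPM in the other XEN libraries, and Eomes had 3 counts. With only passage 2 of each line, Axin2 was 4.44 higher in ES than in XEN (edgeR adjusted p = 0.00267) and Lef1 7.52 higher (adjusted p = 0.000346), and with only passage 1 these were 4.18 (adjusted p = 0.00505) and 5.21 (adjusted p = 0.0278). In the ES lines, Sp5, Lef1, Axin2 and Fzd5 differed by at most 1.49-fold between passages.

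**Figure D4:**
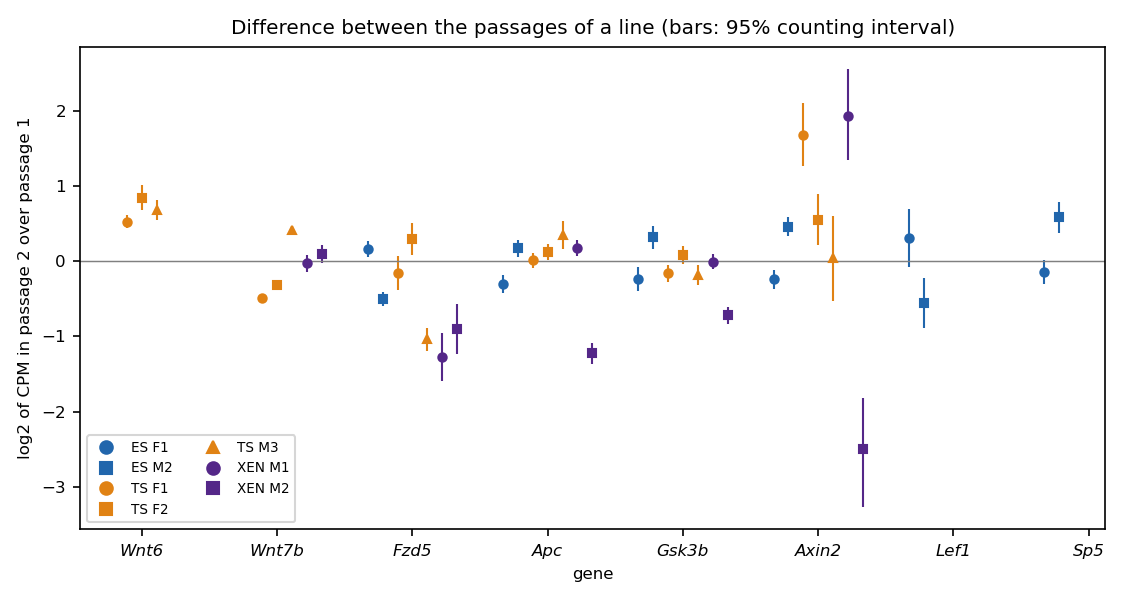
Log2 ratio of the CPM in passage 2 over passage 1 (y axis) for each member (x axis) and line, for those with at least 100 counts over both passages; bars are 95% counting intervals. Axin2 lies farthest from 0, in opposite directions in XEN M1 and XEN M2.

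By pattern over the 7 lines, measured by Pearson's r of log2 CPM, the genes most like each member are given as a description; lines of a lineage share that lineage, and 33 to 613 genes passed an r of 0.95 for 1 member. Closest to Wnt6 were Bmp8b (0.997) and Perp (0.996), to Wnt7b Limd1 (0.998) and Cpeb4 (0.997), to Fzd5 Slc25a48 (0.995) and Fgf13 (0.995), to Apc Kif15 (0.990) and Trim11 (0.984), and to Gsk3b Hspa5 (0.990) and Slc39a7 (0.990). Closest to Axin2 were Syce1 (0.998) and Tagln3 (0.998), to Lef1 Mobkl2c (0.997) and Zcwpw1 (0.996), and to Sp5 Rhbg (0.999) and Npy (0.998).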

How the data were processed

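RNA-seq counts were deposited by the authors as 1 table of raw whole-number counts per gene symbol for all 22 libraries, not normalized. The submitters' processing notes name TopHat 1.3.1, edgeR without a version, and build mm9. Which program counted reads, on which annotation and whether by strand is not given in the sources used here, so reads of overlapping or antisense genes cannot be told apart. The second table deposited by the authors marks each gene UP or DOWN (a unit of kind other), and only this mark was read.

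Embryos were fitted alone with edgeR 4.0.16 in R 4.3.3 (TMM scaling, filterByExpr, robust quasi-likelihood test) with genotype and sex as terms, Nanog-bearing being the mean of both Nanog-carrying genotypes at equal weight. For lines, the counts of the 2 passages were summed and the 7 lines fitted by lineage. P-values were Benjamini-Hochberg adjusted over all genes of a comparison (12965 and 14687), with a threshold of 0.05, and each SE was taken as the size of the log2 fold change divided by the root of F. A prior count of 2 was used for correlations only. The labels do not say that embryos of a genotype came from separate litters, so p-values measure the spread between these samples. Alternatives were DESeq2 1.42.0, its size factors in edgeR, no low-count filter, no sex term, samples left out, and single libraries with or without a passage block. Exon lengths are from GENCODE on GRCm38 and promoters from RefSeq GRCm38.p6, matched by symbol with windows on chr18 left out (6 of 9 members). No window of Wnt7b, Apc or Rspo3 was searched. The motif frequencies were counted over all windows, those on chr18 included. Intervals are exact at 95%, and 0 counts were read as at most 3.

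The 9 genes and the pathway lists were chosen with earlier results of these data known. Named besides them were, from each list, up to 3 called genes per line comparison or 2 per embryo comparison with the smallest p, and the 2 genes most correlated with each member. The text gives only some of these, picked with their values seen, and Ctnnb1, Axin1, Wnt3a, Wnt11, Fzd2 and Cdx2 were added after their values were seen.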

Additional observations from a re-analysis of the deposited data

Results flagged for a closer look

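In 34 groups of libraries of 1 gene, the highest or lowest library was tested for standing apart from the others. A chance rate of about 1 in 20 groups holds only for independent values with a normal spread. Libraries of the lines are passages of the same lines, and some levels lie near 0, so the rate is not known here. Of the 34 groups, 6 were flagged. Axin2 in null embryo M2 was 11.9 CPM, while the other null embryos had 0 to 1.89 CPM. Fzd5 in TS M3 passage 1 was 104 CPM, against 19.6 to 50.3 CPM in the other TS libraries. Lef1 in XEN M2 passage 1 was 0.666 CPM (13 counts), against 0 to 0.0790 CPM in the other XEN libraries. Rspo3 stood apart in 3 groups at a few counts each: 0.468 CPM in null embryo M1 (the others 0 to 0.05), 0.482 CPM in TS F2 passage 1 (the others 0 to 0.0824) and 0.209 CPM in ES M2 passage 1, where it had 2 counts and the other ES libraries 1.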

How the results depend on the processing

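In embryos no member was called under any alternative run, but the counts of called genes moved from 2 in each comparison: without the low-count filter to 50 (null against Nanog-bearing) and 37 (null against wild type), with DESeq2 to 163 and 167, and without null F1 and M2 together to 1 and 1. With 1 embryo left out they ranged from 1 to 2 and from 1 to 3. Without null F1 and M2 together, the embryos with 0 Fzd5 counts, Fzd5 turned to 0.26 and 0.54 and Wnt7b to -0.13 against Nanog-bearing. With 1 embryo left out, Wnt6 ranged from -0.59 to 2.00 and Wnt7b from -0.41 to 0.47 against Nanog-bearing, and Wnt7b from -0.15 to 0.70 against wild type. In lines, with 1 line left out, genes called ranged from 2429 to 6233 in ES against TS and from 3997 to 7646 in ES against XEN, and pathway genes from 27 to 51 and from 32 to 56; the lowest values left 1 ES line, whose spread is then taken from the other lineages. In TS against XEN, where none of the 3 was called, Lef1 ranged from -0.81 to 3.04 and Apc from -0.34 to 0.20; with passage 1 only Lef1 was -0.75 and Sp5 -0.26, and with passage 2 only Apc was 0.23. Calls of Fzd5 and Gsk3b near the threshold were also lost with 1 passage only: Fzd5 in ES against TS (edgeR adjusted p = 0.0859) and TS against XEN (0.105), and Gsk3b in ES against XEN (0.188) and TS against XEN (0.0924 and 0.299). The cause was not tested. With the 14 libraries as samples and a replicate block of passage number, Axin2 was 3.71 in ES against TS, with 55 pathway genes called. No member call differed from the summed fit. Without the block the values were 3.68 and 56. Deviations of libraries from their lineage mean were also correlated between lineages. The median r was -0.007 over 32 pairs of same-numbered passages and 0.005 for other numbers. These deviations also hold the differences between lines, so the correlation cannot decide whether same-numbered passages vary together. Effective library sizes moved Axin2 in wild type from 10.5 to 10.02 CPM and Wnt7b in XEN to 80.1 CPM. Rspo3, and Lef1 and Sp5 outside ES, had at most 13 counts in any library, so their values have wide counting error.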
